A study of Mus musculus with 8 samples.

Results

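Bdnf, Cdh20 and Lmx1a are 3 genes of the neural lineage, and each was read by 1 probe of the array. The probes were taken by their identifiers, Z00023684-1 for Bdnf, Z00032628-1 for Cdh20 and Z00054259-1 for Lmx1a, which makes 3 of the 42006 different probes tested. The array files give no gene names, so the names come from a published list that pairs 128 probes with genes. That list holds genes chosen by the study for their fold in cells treated with retinoic acid, so the values in those cells are given as a description.

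Mouse embryonic stem cells (ESCs) of the reporter line ES [129.3:zscan4cEmgfp], strain 129/Sv, carry the green fluorescent protein Emerald under the promoter of Zscan4c. All groups carry this reporter, and they differ in the medium and in the fluorescence on which the cells were sorted at culture day 5. RM-Zscan4+ (Emerald positive, regular medium) and RM-Zscan4- (Emerald negative, regular medium) each had 3 arrays, labelled as biological replicates. RA-Zscan4+ and RA-Zscan4- (Emerald positive and Emerald negative cells grown in retinoic acid, 1.5 uM by the study's methods) each had 1 array. Sorting followed the activity of a promoter fragment and not the Zscan4 transcript itself, and neither the labels nor the methods say how many clones the line came from. On each of the 8 arrays the sorted cells were labelled with Cy3 and a reference RNA pooled from 11 mouse cell lines was labelled with Cy5. The level of a gene is therefore the log2 ratio of Cy3 over Cy5, in which 0 means equal signal in the sorted cells and in the reference.

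Zscan4 marks a rare and transient state of ESCs in which genes of the early embryo are active, and retinoic acid is a signal that pushes ESCs toward differentiation, often toward neural cells. Retinoic acid acts through nuclear receptors that bind repeats of a short DNA element. Bdnf encodes brain-derived neurotrophic factor, a secreted protein that supports the survival and the synapses of neurons through the receptor TrkB. Lmx1a encodes a LIM homeodomain transcription factor of the roof plate and of the dopaminergic progenitors of the midbrain floor plate. Cdh20 encodes a type II cadherin, a membrane protein through which cells adhere to each other, expressed in the developing nervous system and in neural crest.

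Each probe is a 60-mer, and the sequences are shown because all that is known of these genes here was read through them. For Lmx1a the first 30 bases are given.

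Bdnf probe: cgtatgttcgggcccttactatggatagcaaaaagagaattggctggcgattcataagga
Cdh20 probe: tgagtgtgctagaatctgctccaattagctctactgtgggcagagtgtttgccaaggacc
Lmx1a probe, bases 1 to 30: gtgaatgaaagcaaacagagatccttaatt

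The G and C content was 45% in the Bdnf probe, 50% in the Cdh20 probe and 35% in the Lmx1a probe, against a median of 43.3% over all probes and a range from the 5th to the 95th percentile of 33.3% to 58.3%. Read 5' to 3' as deposited, the Bdnf and the Cdh20 probe each had 1 of 3 reading frames without a stop codon. The Lmx1a probe had 0 such frames, as had 16.8% of all probes. No transcript sequence was used here to place the probes on exons. The Cdh20 probe shared a run of 15 bases with 1 other probe of the array, whereas the longest run that the Bdnf or the Lmx1a probe shared with any other was 12 bases.

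The sort was checked on Zscan4. In regular medium the log2 ratio of its probe was between 5.03 and 5.59 in the 3 RM-Zscan4+ arrays and between 0.10 and 0.98 in the 3 RM-Zscan4- arrays. Among the RA arrays it reached 6.13 in Emerald positive and 1.88 in Emerald negative cells, so the Emerald labels held within each medium. Of the 11 genes listed here as markers of the 2-cell-like state, 10 were higher in RM-Zscan4+ at an adjusted p under 0.15 (limma, Benjamini-Hochberg over all probes), as were 0.348% of all probes, a list that draws on genes the study named from these arrays. Of 13 ESC markers only Fbxo15 and Zfp296 had a named probe, and neither passed. None of the listed endoderm, mesoderm, fibroblast or retinoic acid target genes had a named probe. Other cell types and the medium labels were therefore not checked. In sorted populations a higher level can come from more expressing cells or from more RNA per cell, and these arrays cannot tell the difference.

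Lmx1a was higher in Zscan4+ than in Zscan4- cells in regular medium, with no overlap between the groups. Groups apart in this direction were found for 4.97% of all probes. The log2 ratio of Lmx1a was 1.85, 2.16 and 1.64 in RM-Zscan4+ replicates 1, 2 and 3. It was 0.51, 0.09 and -0.0040 in RM-Zscan4- replicates 1, 2 and 3. The lowest RM-Zscan4+ array thus lay 1.13 above the highest RM-Zscan4- array. The mean was 1.89 ± 0.26 (SD, n = 3) in RM-Zscan4+ and 0.20 ± 0.28 (SD, n = 3) in RM-Zscan4-. The difference of 1.69 on the log2 scale, or 3.22-fold, had a standard error of 0.19 and a 95% interval from 1.23 to 2.14, and passed with an adjusted p of 0.0477 (limma). Lmx1a was the only one of the 3 genes to pass, where 0.348% of all probes were called higher, and it also passed the stricter demand of at least 3-fold, met by 0.193% of all probes. The fold fell under 3 with normexp and loess (2.48), from Cy3 alone (2.73), without RM-Zscan4+ replicate 2 (2.92) and, barely, without RM-Zscan4- replicate 3. Its change ranked 113 of 42006 with the probes ordered from the largest rise to the largest fall. Left out singly, RM-Zscan4+ replicate 1 moved the adjusted p to 0.247 and RM-Zscan4- replicate 2 to 0.249, both past the threshold, while the log2 difference stayed at 1.70 and 1.63. The t-statistics of the study's methods, rebuilt here with their floor under the error variance, called 0 of 42006 probes, with 606 at an unadjusted p under 0.05, and gave Lmx1a an adjusted p of 1.00. Zscan4 itself, 27.8-fold higher in RM-Zscan4+, had an adjusted p of 0.282 by these t-statistics and did not pass either.

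Bdnf was higher in Zscan4+ cells in regular medium by a smaller amount, which did not pass. The log2 ratio of Bdnf was -1.67, -1.84 and -1.75 in RM-Zscan4+ replicates 1, 2 and 3, and -2.70, -2.81 and -2.16 in RM-Zscan4- replicates 1, 2 and 3. All values were below 0, so the pooled reference gave more signal than the sorted cells on every array. The groups did not overlap, as was found in this direction for 4.97% of all probes. The lowest RM-Zscan4+ array lay 0.33 above the highest RM-Zscan4- array. The mean was -1.75 ± 0.08 (SD, n = 3) against -2.56 ± 0.35 (SD, n = 3), so the RM-Zscan4- arrays were the more scattered. The log2 difference of 0.81 (1.75-fold) had a standard error of 0.18, a 95% interval from 0.38 to 1.23 and an adjusted p of 0.312 (limma). With the replicate number as a block, the same difference had an adjusted p of 0.138 and passed, in a fit that called 1.85% of all probes higher. With the block and with flagged spots of other probes kept, the adjusted p was 0.168 and Bdnf did not pass. Without RM-Zscan4- replicate 3 the difference was 1.00 with an adjusted p of 0.0421. On that same array Zscan4 stood at 0.98, the highest of the 3 RM-Zscan4- arrays, and the part of this in the Bdnf value was not tested.

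Cdh20 was nearly the same in Zscan4+ and Zscan4- cells in regular medium. Its log2 ratio was 0.08, -0.18 and -0.08 in RM-Zscan4+ replicates 1, 2 and 3, and -0.10, -0.15 and -0.11 in RM-Zscan4- replicates 1, 2 and 3. The groups overlapped, and all RM arrays lay between -0.18 and 0.08, close to equal signal. The difference was 0.06 with a standard error of 0.08 and an adjusted p of 1.00 (limma), and it became -0.0088 without RM-Zscan4+ replicate 1. Its 95% interval ran from -0.14 to 0.27, so a change in regular medium of the size of the Lmx1a change lay outside it.

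**Figure D1:**
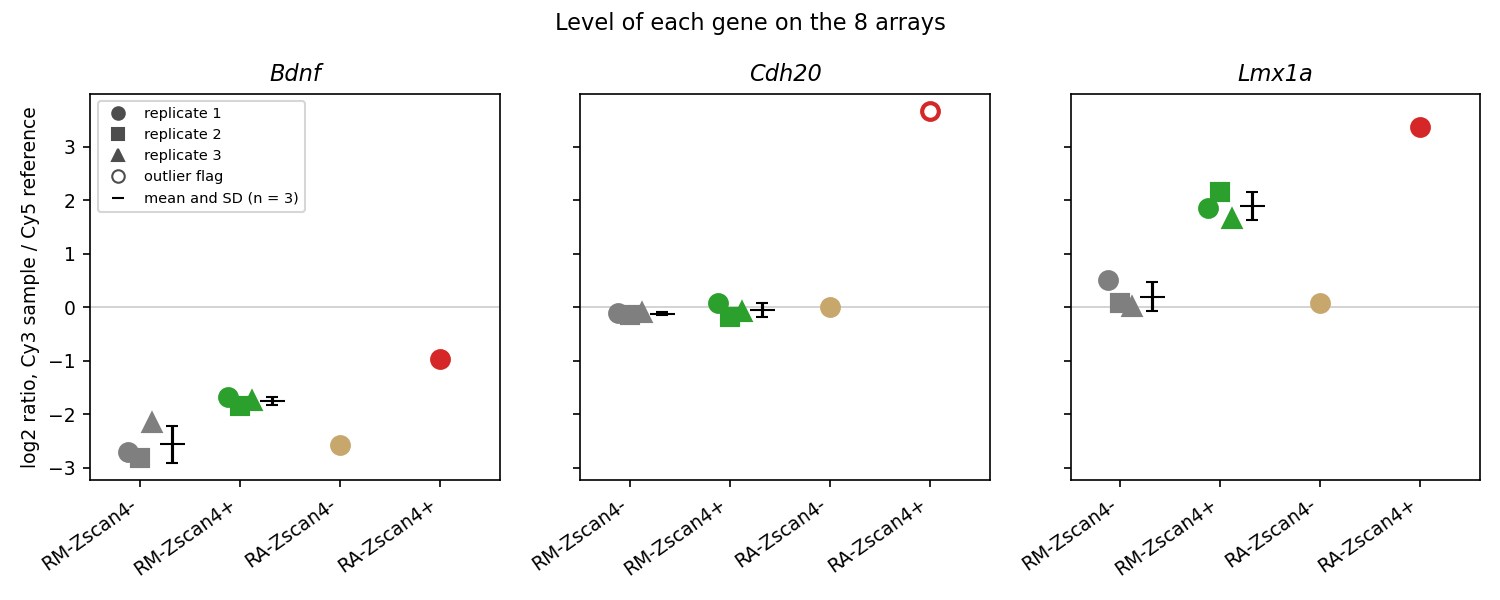
Log2 ratio of Cy3 (sorted cells) over Cy5 (reference) of each gene on the 8 arrays, by group, with the replicate number as the symbol and the mean and SD of the groups of 3 beside them. Lmx1a and Bdnf separate RM-Zscan4+ from RM-Zscan4-, as do 4.97% of all probes with Zscan4+ on top, and Cdh20 does not. RA-Zscan4+ is the highest array for each gene, for Cdh20 on a spot with an outlier flag (open symbol).

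Seen pair by pair, Lmx1a and Bdnf were higher in Zscan4+ cells in all 3 RM pairs, as were 15.3% of all probes. Both arrays of a pair share an extraction batch, the batch in which the scans were read out: replicates 1 and 3 form the first, replicate 2 the second and the RA arrays the third. For Lmx1a the log2 change was 1.34, 2.07 and 1.65 in pairs 1, 2 and 3, so the mean of the first batch was 1.49 against 2.07 in the second. For Bdnf it was 1.03, 0.97 and 0.41, which gives 0.72 in the first batch and 0.97 in the second. For Cdh20 it was 0.18, -0.03 and 0.03, a mean of 0.11 in the first batch and a single value below 0 in the second. Lmx1a and Bdnf thus kept their direction in both batches. Non-overlapping RM groups with the Zscan4+ arrays on top were found for 4.97% of all probes.

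In retinoic acid all 3 genes were at a higher level on the RA-Zscan4+ array than on the RA-Zscan4- array, with 1 array of each, so these folds have no replicate check and no test. At least 3-fold higher were 0.486% of all probes with a value, and 0.512% with the spots that carry an outlier flag included. Nothing is read from these shares, since the study listed the genes for this fold.

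The log2 ratio of Lmx1a was 3.36 on the RA-Zscan4+ array against 0.08 on the RA-Zscan4- array, a 9.75-fold difference (3.29 on the log2 scale). The RA-Zscan4- value fell within the RM-Zscan4- range, while the RA-Zscan4+ value lay above all RM-Zscan4+ arrays and 1.48 above their mean. Under normexp background correction with loess normalization, a different treatment of low signals, the fold was 7.23.

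The log2 ratio of Bdnf was -0.97 on the RA-Zscan4+ array against -2.57 on the RA-Zscan4- array, a 3.04-fold difference (1.61 on the log2 scale). This stands at the margin of 3-fold: it was 2.47-fold under normexp and loess, 2.92-fold from the median pixels of the spots and 3.07-fold from Cy3 alone. As for Lmx1a, the RA-Zscan4- value fell within the RM-Zscan4- range and the RA-Zscan4+ value, 0.78 above the RM-Zscan4+ mean, was the highest of the 8.

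The log2 ratio of Cdh20 was 0.00039 on the RA-Zscan4- array against 3.67 on the RA-Zscan4+ array, but the latter spot was flagged by the scanner software as non-uniform in Cy3 and was left out of the fits. With it kept, the fold was 12.7 (3.67 on the log2 scale), above that of Lmx1a. From Cy3 alone that order turned, with 9.29-fold for Cdh20 and 9.73-fold for Lmx1a. RA-Zscan4+ was the only array to stand apart, 3.59 above the highest RM-Zscan4+ array, and the other 7 lay between -0.18 and 0.08.

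**Figure D2:**
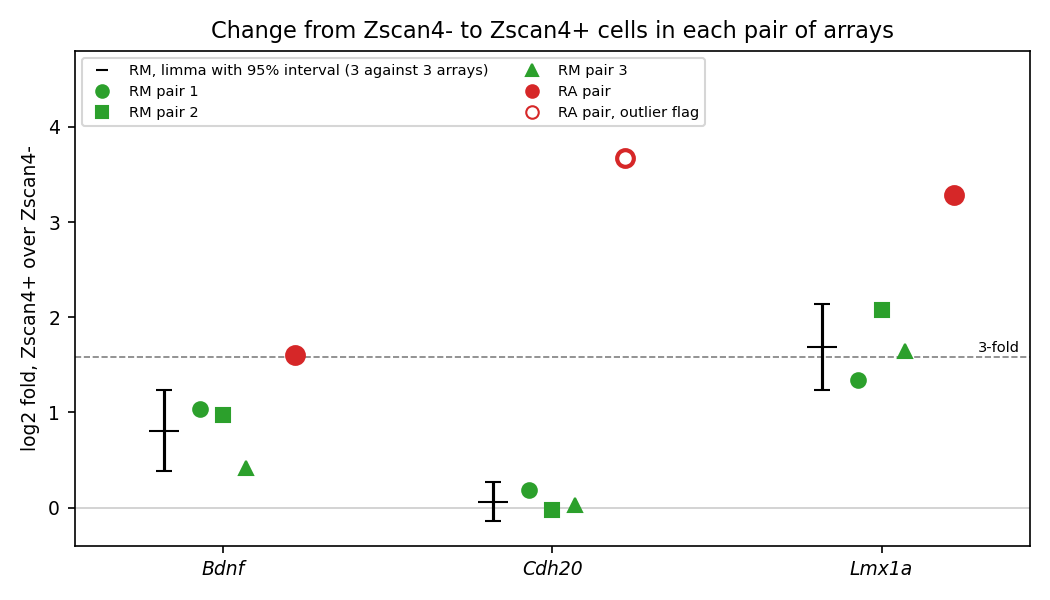
Log2 fold of Zscan4+ over Zscan4- for each gene, with the 3 RM pairs, their limma estimate and 95% interval, and the RA pair. The RA pair lies above all RM pairs for each gene, by 0.57 for Bdnf, 3.49 for Cdh20 (outlier flag, open symbol) and 1.21 for Lmx1a.

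Because 1 spot carries the Cdh20 value in retinoic acid, its scan was examined. Cy3 above local background was 459 intensity units, against 57.6 to 173 on the other 7 arrays. Cy5 of the same spot was 125, inside the range of 107 to 337 on the others. After dye normalization, the processed Cy5 of the spot was 260, the lowest of the 8 arrays, whose other values ran from 347 to 640. The processed Cy3 was 3303, against 348 to 677 on the others. The pixels of the spot had a Cy3 SD of 108, against a median of 27.9 and a 95th percentile of 40.7 among the 2410 probes of that array whose Cy3 signal was within a factor of 1.2 of it. A pixel SD at least that high was found in 2 of them, or 0.083%. The median pixel, which a few bright pixels move little, was also high, at 443 above background. The local background of 385 equalled the median of the array, and 28 pixels were used. Around the spot, 24 neighbouring probe spots had 0 outlier flags and a median log2 fold in the RA pair of 0.03, with a range from -0.69 to 0.31. Whether the spot reports Cdh20 RNA was not tested, as no second array of RA-Zscan4+ and no second probe named for Cdh20 were analysed here.

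The dyes were also read separately. For Lmx1a, Cy3 above background was 2.64, 2.16 and 2.51 times higher in RM-Zscan4+ than in RM-Zscan4- in pairs 1, 2 and 3, and 7.44 times higher in the RA pair. Cy5 of Lmx1a differed by factors of 1.16, 0.679, 1.04 and 1.35 in the same pairs. In pair 2 the reference signal was thus lower on the Zscan4+ array, and the log2 ratio there was the highest of the 3 pairs. For Bdnf, Cy3 was 2.08, 1.87 and 1.04 times higher in RM pairs 1, 2 and 3 and 3.04 times higher in the RA pair, with Cy5 factors between 0.922 and 1.06. The smallest Bdnf change, in pair 3, was also small in Cy3 itself. For Cdh20 the RM-Zscan4+ replicate 1 array was high in both dyes, with Cy3 of 173 and Cy5 of 337, and the ratio stayed close to equal.

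All 3 probes were dim. Cy3 above background was 60.9 to 185 for Bdnf on the 8 arrays and 53.9 to 401 for Lmx1a. The 95th percentile of the 314 negative control spots was 31.0 to 49.0 in Cy3, depending on the array. Relative to that percentile of its own array, Lmx1a ran from 1.36 times in RM-Zscan4- replicate 2 to 11.9 times in RA-Zscan4+, Bdnf from 1.78 to 5.48 times, and Cdh20 from 1.74 to 4.06 times outside the flagged spot. On the 4 Zscan4- arrays the 3 genes stood at 1.36 to 2.55 times that percentile, which limits how well a fold over Zscan4- cells is known. Cy5 of Bdnf was much stronger, 1113 to 1447.

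**Figure D3:**
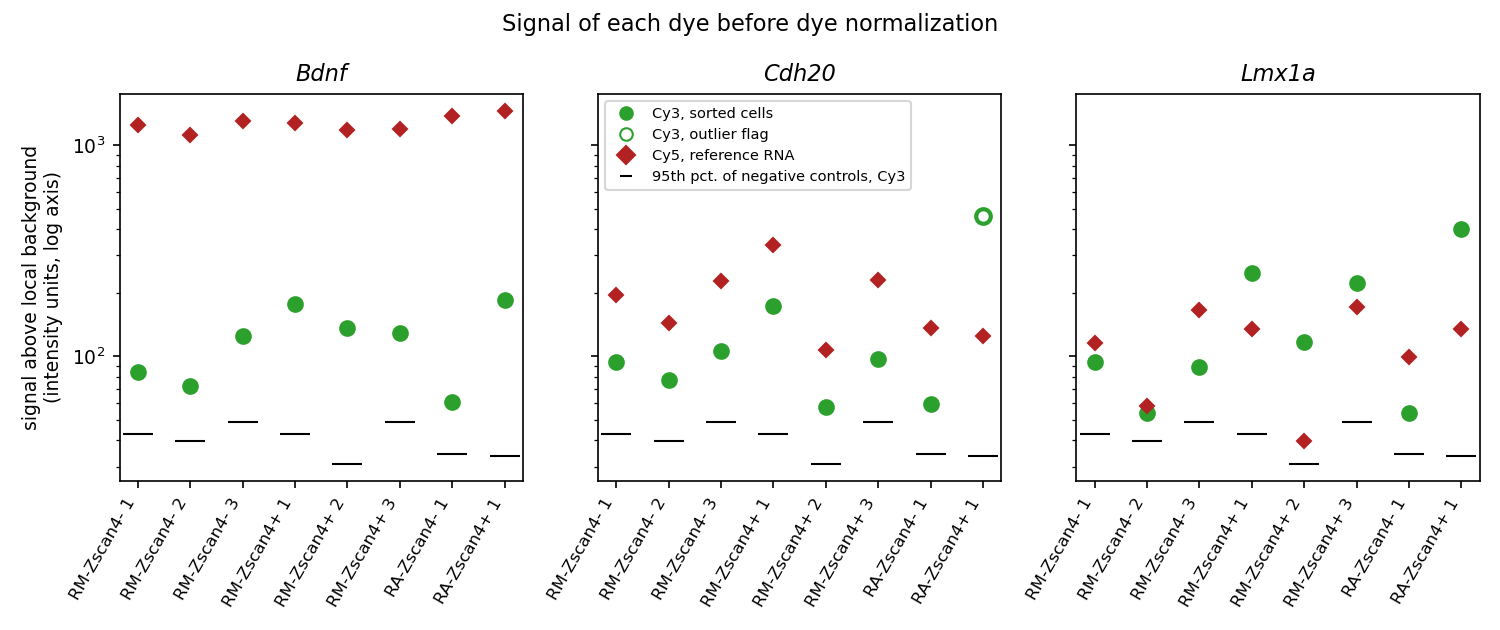
Cy3 (sorted cells) and Cy5 (reference RNA) signal above local background, in intensity units on a log axis, of each gene on the 8 arrays, with the 95th percentile of the negative controls in Cy3 as a dash. Lmx1a and Bdnf have more Cy3 signal on each Zscan4+ array than on its Zscan4- partner while Cy5 of Bdnf is nearly level, and the Cdh20 spot of RA-Zscan4+ (open symbol) is high in Cy3 and within the range of the other arrays in Cy5.

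The change in retinoic acid was set against the change in regular medium with an interaction contrast of the same fit. It assumes that the lone RA arrays vary like the RM arrays, and medium and the third extraction batch cannot be told apart. The RA arrays also entered the choice of these genes, so the values give only the size of the difference against the spread. For Lmx1a the change was larger in RA than in RM by 1.60 (SE 0.37, 95% interval 0.70 to 2.50). For Bdnf it was larger by 0.80 (SE 0.35, 95% interval -0.05 to 1.65). Neither passed, and limma called 0 of 41958 probes here, with 1120 at an unadjusted p under 0.05. Normexp with loess called 2 higher and 1 lower.

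For Cdh20 the difference has a value only with the flagged spot kept. It was then 3.61 on the log2 scale, and 3.05 from Cy3 alone. No p is given for it here: it rests on 1 non-uniform spot without a replicate, on a gene listed for this fold, with the spread taken from the RM arrays alone.

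In Emerald negative cells, none of the 3 genes was called different between media. RA-Zscan4- minus RM-Zscan4- was -0.02 (95% interval -0.62 to 0.59) for Bdnf, 0.12 (-0.17 to 0.41) for Cdh20 and -0.12 (-0.76 to 0.52) for Lmx1a on the log2 scale. The adjusted p was 0.991, 0.787 and 0.920 (limma), where 2.82% of all probes passed in either direction. The sign of each difference changed with the processing. Zscan4 itself was 1.44 higher in RA-Zscan4- than in RM-Zscan4- (limma, adjusted p 0.200), and its part in these levels was not tested. In order of level, Lmx1a and Bdnf thus stood highest in RA-Zscan4+, then in RM-Zscan4+, and lowest in both Zscan4- groups. The Zscan4- groups were not called different, but RA-Zscan4- has 1 array, its spread was taken from the RM arrays, and the intervals are wide. The step from RM-Zscan4+ to RA-Zscan4+ was not tested, and for Bdnf the step from RM-Zscan4- to RM-Zscan4+ did not pass. Cdh20 had no such order outside the flagged spot.

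**Figure D4:**
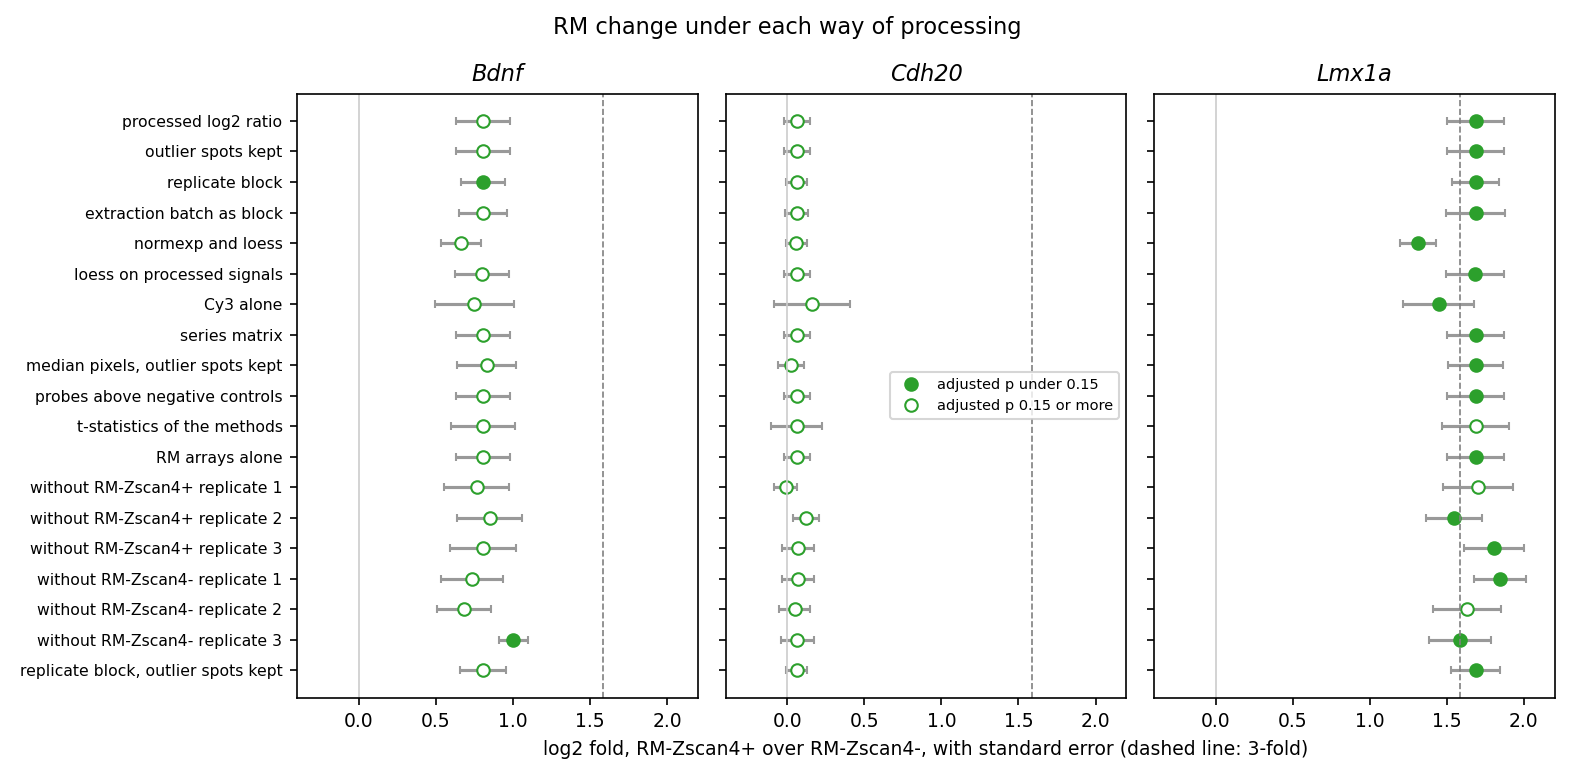
Log2 fold of RM-Zscan4+ over RM-Zscan4- with its standard error under each way of processing (rows), filled where the adjusted p was under 0.15. The Lmx1a fold stays between 1.31 and 1.84 and does not pass in 3 rows. The Bdnf fold stays between 0.66 and 1.00 and passes in 2 rows, and the Cdh20 fold stays between -0.0088 and 0.16.

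The probes with the most similar course over the arrays were sought among those with a name, by the root mean square difference between log2 ratios after each probe was centred on its own mean. This is a description over 8 arrays that share their reference, and over 7 for Cdh20. The names are spelled as listed. Nearest to Lmx1a were LOC673656 (0.20, rank 1 of 41112 probes), 1810062G17Rik (0.22, rank 3), BC080695 (0.25, rank 8), EG666099 (0.25, rank 9) and D5Ert577e (0.25, rank 10). Near to Bdnf were LOC229571 (0.17, rank 3), Tdpoz5 (0.17, rank 4), Al553587 (0.21, rank 10) and 2410017P07Rik (0.22, rank 13). The named probes all come from a list chosen for the rise in Zscan4+ cells, so their nearness is partly set by that choice. Without the flagged spot Cdh20 was nearly flat, and its nearest named probe, D030070L09Rik (0.13), ranked 14591 of 41136. That distance is below those for Lmx1a and Bdnf, but many unnamed probes lay nearer. Next came Gm1070 (0.13), Gm854 (0.14), 4930488B22Rik (0.15) and 4932442E05Rik (0.15). Of these 5 only 4930488B22Rik had a value in the RA pair, a log2 fold of 1.86. The others, like Cdh20, had an outlier flag on the RA-Zscan4+ array, where 24 of 42034 probe spots carried one. Of the other genes in fixed lists for the neural lineage (17 genes with these 3), neurotrophins and their receptors (12), type II cadherins and catenins (17) and the roof and floor plate (15), none but these 3 had a named probe.

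Retinoic acid receptors bind pairs of short elements such as AGGTCA. The promoter windows of the 3 genes were taken from RefSeq (build GRCm38.p6, 250 bases before to 50 bases after a transcript start). They were searched on both strands for this exact spelling, and other spellings were not searched. Bdnf had 7 windows, Cdh20 1 and Lmx1a 1. The element was found in 1 of the 9, a Bdnf window, and in 16.3% of 32851 windows of the same length over all genes. It is shown in capitals in the stretch around it.

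Bdnf AGGTCA element, chr2:109692965-109692994, + strand: cacactccggagAGGTCAgggcgcaaactc

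The element begins 50 bases before that transcript start. Direct repeats of the element with 1, 2 or 5 bases between them were found in 0 of the 9 windows, and in 0.0396%, 0.00913% and 0.00913% of all windows. A match in the letters is a description of the window, and the Bdnf probe does not show which start was used.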

How the data were processed

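The authors deposited scanner output of Agilent Feature Extraction (version 7.5.1 in the file headers) with intensity values for each spot, background-subtracted and dye-normalized, the pixel numbers behind them, and a matrix of log10 values used as an alternative. The processed intensities were turned into a log2 ratio, Cy3 over Cy5. Controls were dropped, as were spots marked as outliers (non-uniform, or unlike their repeats), and repeated probes were averaged. A filter on probes not well above background removed 0. The means of the 4 groups were fitted with limma 3.58.1 in R 4.3.3, adjusted by Benjamini-Hochberg over all probes, and called at 0.15, a rate taken from the methods. The RA pair by itself is given as folds, and its arrays entered the tests between media. Tables and figures used Python 3.11.15, and the fits were tested on simulated data. Other numbers in the deposited files, such as pixel counts, entered no test.

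The replicate numbers come from the labels. Deviations from the group means correlated, across probes, by 0.388, 0.562 and 0.592 between arrays of the same number. Arrays of the same number also share an extraction batch, and replicate 2 is alone in its batch, so these values cannot tell pairing from batch. The numbers were used to form the pairs and the replicate block, while the main fit had no block. Beside 3 genes and a Zscan4 check, probes were named by a fixed rule: the 5 named probes of most similar course for each gene, 1 of which is not reported here, and genes of fixed lists. Genes and lists were chosen with earlier results of these data known. The number of arrays limits the precision.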

Additional observations from a re-analysis of the deposited data

Results flagged for a closer look

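The Cdh20 change in retinoic acid exceeded that in regular medium by 3.61 on the log2 scale when the spot with the outlier flag was kept. It was marked because a limma fit with flagged spots kept called this difference between media. That fit has 1 array in each RA group, takes its spread from the RM arrays and rests on a gene listed for its RA fold. The call therefore carries no weight as a test, and from Cy3 alone the difference was 3.05 and was not called. The spot, which the comparisons left out, had a Cy3 signal above local background 13.6 times the 95th percentile of the negative controls on its array. Groups of 3 or 1 arrays are too small to look for single arrays that stand apart.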

How the results depend on the processing

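The 3 genes and 4 comparisons gave 12 results and 157 alternative values, of which 139 kept their direction and their side of the threshold (for the RA pair, moved by less than the SD of the RM pairs). Some of these could not come out otherwise. A stricter threshold cannot change a result that was not called, and the RM arrays alone repeated the RM fit. Keeping flagged spots left the unflagged RA folds as they were. Leaving out an RM-Zscan4+ array left the difference between the Zscan4- groups as it was. The 139 is therefore no measure of robustness. In regular medium, Bdnf (0.81, adjusted p 0.312) passed with the replicate block (0.81; not with flagged spots also kept, adjusted p 0.168, added after seeing the data) and without RM-Zscan4- replicate 3, and ranged from 0.68 to 1.00 with single arrays left out. The replicate block changed no other call. Lmx1a (1.69) was not called with the methods' own t-statistics (1.69), and ranged from 1.55 to 1.84 with single arrays left out, losing the call without RM-Zscan4+ replicate 1 or RM-Zscan4- replicate 2. Cdh20 (0.06) ranged from -0.0088 to 0.12 with single arrays left out. With its flagged spot kept, a choice made after seeing the data, the Cdh20 log2 fold in the RA pair moved from 3.67 to 3.16 (normexp and loess), 3.22 (Cy3 alone) and 3.55 (median pixels), and its excess over regular medium was 3.05 from Cy3 alone. Lmx1a in the RA pair moved from 3.29 to 2.85 under normexp and loess. Between RA-Zscan4- and RM-Zscan4- the sign turned for Bdnf (-0.02) under normexp and loess (0.041), Cy3 alone (0.16) and median pixels (0.0043), with a range from -0.14 to 0.18 with single arrays left out. It turned for Cdh20 (0.12) under Cy3 alone (-0.091), and for Lmx1a (-0.12) under Cy3 alone (0.026), with a range from -0.22 to 0.034 with single arrays left out. The causes were not tested. The count of probes called in regular medium was 146 higher and 21 lower, against 777 and 525 with the replicate block, 182 and 56 with the extraction batch as a block, 197 and 43 under normexp and loess, 128 and 1 from Cy3 alone, and 0 with the methods' own t-statistics. A lone array is assumed to vary like the others where leaving one out changes a group. Signal over background limits all 3 genes in Zscan4- cells.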
